A study of Mus musculus with 7 samples.

Results

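The regions described here held a CTCF peak in mouse 3T3 fibroblasts and a CTCFL peak in mouse P19 embryonal carcinoma cells, with no CTCFL peak in 3T3 and no CTCF peak in P19. They are called crossed regions below. They were chosen by the presence and absence of peaks in 4 deposited lists, after peaks that overlapped by at least 1 bp had been merged into 65700 regions. The rule found 216 crossed regions, or 0.329% of all merged regions. Presence in one line and absence in the other is therefore how the regions were selected and not a result. The 2 peaks of a region come from different cell lines and antibodies, so no exchange of one protein for the other was observed in any cell.

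Chromatin immunoprecipitation and sequencing mapped CTCF with the antibody N2.2 and CTCFL with the antibody S6. The 3T3 cells (NIH3T3, a fibroblast line) carried the stable integrates pBI-EGFP-FLAG-mCtcfl and pTA-N, which give inducible tagged mouse CTCFL. The same integrates are listed for the P19 cells, whose titles nevertheless call them controls. For all groups the labels give 2 µg/ml doxycycline in culture and 48 h without it for induction, so whether CTCFL was induced in the P19 libraries cannot be read from the labels. Of the 7 samples of the series, the 4 with a peak list were used. The 3T3 cells without the construct and the P19 input DNA were not analysed here, so the CTCFL peaks were not set against cells lacking the construct. Peak lists hold no expression values, and the identity of the cells was not checked against marker genes.

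CTCF is a zinc-finger protein found at many sites in nearly all cell types, where it stops loop extrusion by cohesin, anchors chromatin loops and insulates enhancers from promoters. CTCFL, also named BORIS, is its paralogue with a very similar zinc-finger domain and different ends, and it is normally made in male germ cells and some tumours. Because the DNA-binding domains are alike, the proteins can recognise the same core sequence. Sites can be taken by CTCF alone, by CTCFL alone or by both.

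With 1 library in each group, differences could not be set against replicates, and no tests were made. Shares are followed in brackets by 95% exact (Clopper-Pearson) intervals, which cover counting error only. Read depth is unknown. The 3T3 lists held 45653 CTCF and 16764 CTCFL peaks, and the P19 lists 32277 CTCF and 5866 CTCFL peaks. The authors' peak score, read as a log-scaled p-value from the caller and higher for stronger peaks, starts at about 50 in every list, with medians of 104.5 (3T3 CTCF) and 75.1 (P19 CTCFL). It is used only within a list, where a peak's percentile is the share of that list's peaks with a lower score. Positions are mm9 coordinates counted from 1. No genome or gene annotation of that build was used here, so no region below is assigned to a gene, promoter, exon or intron, and no sequence is shown.

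The share of sites at which the crossed pattern could occur and did depended on the lists. Of the 19586 regions with 3T3 CTCF and neither 3T3 CTCFL nor P19 CTCF, 216 carried P19 CTCFL, which is 1.10% (0.961 to 1.26). Over all 44633 regions with 3T3 CTCF the share was 8.82%. Where CTCF was also present in P19, again without 3T3 CTCFL, P19 CTCFL lay at 1716 of 15703 regions, 10.9% (10.4 to 11.4). Where 3T3 CTCFL was present and P19 CTCF was not, it lay at 652 of 6636 regions, 9.83% (9.12 to 10.6). The highest share, 49.96% (48.06 to 51.86), belonged to regions that had both of the other peaks. The lists that define the classes also give these shares, so they describe the selection and are no test of it. The 1.10% became 9.95% with all lists limited to their 5866 highest scoring peaks, 2.20% with only excluding peaks of score at least 100, and 0.455% with a score of at least 100 required in the 3T3 CTCF and P19 CTCFL lists.

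Seen from P19, 1136 regions held CTCFL with neither P19 CTCF nor 3T3 CTCFL, and 216 of them, 19.01% (16.77 to 21.42), had CTCF in 3T3, against 67.7% of all 5816 regions with P19 CTCFL. With P19 CTCF present the share with 3T3 CTCF was 66.9% (65.0 to 68.7), and with 3T3 CTCFL present in place of P19 CTCF it was 89.6% (87.1 to 91.7). Among these classes, P19 CTCFL lay on a 3T3 CTCF site least often where neither of the remaining lists had a peak. The 19.01% fell to 6.62% with lists of equal length and was 32.3% with only excluding peaks of score at least 100. Starting from the 3937 regions with both 3T3 CTCF and P19 CTCFL, 3069 also had P19 CTCF, 78.0% (76.6 to 79.2), and 216 had neither of the other peaks, 5.49% (4.80 to 6.24).

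The reverse pattern, CTCFL in 3T3 and CTCF in P19 with nothing else, was rarer and covered 30 regions. It made up 1.08% (0.731 to 1.54) of the 2772 regions with 3T3 CTCFL and P19 CTCF, against 5.49% for the crossed regions among theirs. Its 2 lists are of other lengths, 16764 and 32277 peaks, than the 45653 and 5866 peaks behind the crossed regions. With scores of at least 100 required in the 3T3 CTCF and P19 CTCFL lists alone, the order turned, to 26 crossed and 106 reverse regions. That setting removes peaks that crossed regions need and peaks that bar reverse regions. The opposite setting, a score of at least 100 in the 3T3 CTCFL and P19 CTCF lists alone, gave 612 crossed and 2 reverse regions, and lists of equal length gave 204 and 4.

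The peaks of crossed regions ranked near or below the middle of their lists. Their 3T3 CTCF score ranged from 50.3 to 856, with a median of 101 and quartiles of 65.5 and 150. The P19 CTCFL score ranged from 50.6 to 222, with a median of 68.9 and quartiles of 57.9 and 91.2. CTCF exceeded the median of the 3T3 list at 102 of 216 regions, 47.2% (40.4 to 54.1), and CTCFL exceeded the median of the P19 list at 84, 38.9% (32.3 to 45.7). Strong peaks were few. The 3T3 CTCF peak stood in the top 10% of its list at 2 regions, 0.926% (0.112 to 3.31), and the P19 CTCFL peak at 5 regions, 2.31% (0.756 to 5.32). Such peaks were also few where they stood alone, at 0.769% (0.651 to 0.9025) for 3T3 CTCF and 1.52% (0.834 to 2.54) for P19 CTCFL.

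Set against the regions that hold 1 of the 2 peaks alone, crossed regions ranked higher in both lists. The median 3T3 CTCF percentile was 47.3 in crossed regions and 31.1 in the 19370 regions with 3T3 CTCF alone. For P19 CTCFL it was 41.5, against 28.9 in the 920 regions with P19 CTCFL alone. Regions with further peaks ranked higher still in 3T3 CTCF. Its median percentile was 71.7 in the 1716 regions with CTCF in both lines and CTCFL in P19, 85.7 in the 652 regions with CTCFL in both lines and CTCF in 3T3, and 96.1 in the 1353 regions with all 4 peaks. The P19 CTCFL percentiles of these classes were 49.2, 50.9 and 71.7, so the order was the same and the steps were smaller. The quartiles of crossed regions overlapped those of every class except, in 3T3 CTCF, the 652 and the 1353 regions. Scores were not used to place a region in a class beyond the authors' limit of about 50, yet a peak near that limit is also one that is easily missed in another list, and how much of the order comes from this was not tested.

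**Figure D1:**
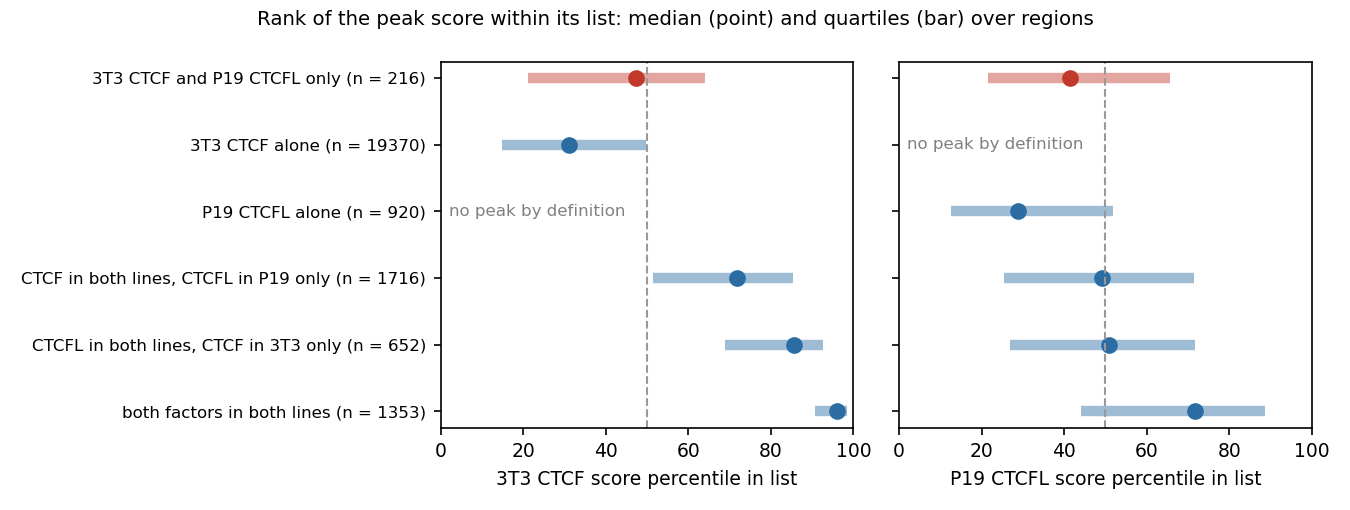
Percentile of the peak score within its own list for 3T3 CTCF (left) and P19 CTCFL (right), with points for medians and bars for quartiles over the regions of each class. The crossed regions (top row, medians 47.3 and 41.5) lie between the regions with a single peak and the regions with 3 or 4 peaks.

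Within the crossed regions the scores of the peak pair were only weakly related. Across the 216 regions Spearman's rho was 0.049 and Pearson's r of the log10 scores was 0.052, given as a description, since regions of a library share its depth and background. The same rho was 0.0042 in the 1716 regions with CTCF in both lines and CTCFL in P19, 0.138 in the 652 regions with CTCFL in both lines, and 0.085 in the 1353 regions with all 4 peaks. Both peaks exceeded their list medians at 37 crossed regions, 17.1% (12.4 to 22.8), and neither did at 67, 31.0% (24.9 to 37.7). Of all 3937 regions with both peaks, 48.2% had both above the medians and 8.31% had neither.

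**Figure D2:**
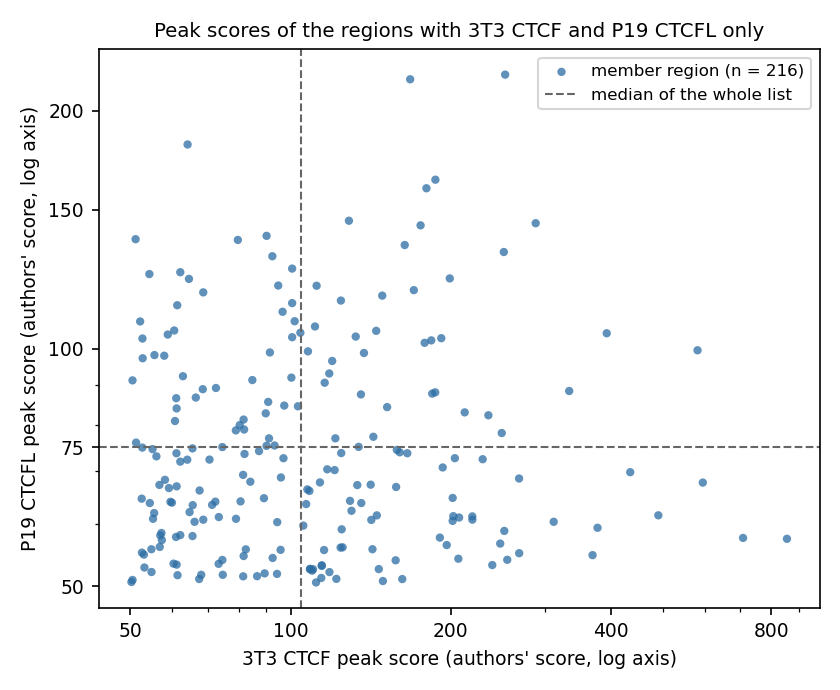
Score of the 3T3 CTCF peak (horizontal, log axis) against that of the P19 CTCFL peak (vertical, log axis) for the 216 crossed regions, with dashed lines at the medians of the whole lists (104.5 and 75.1). Regions lie on all sides of both lines, and 37 of them are above both.

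The 10 regions with the highest summed percentile had both peaks well above the median of their lists. The leading one, chr11:46125037-46125855, had a 3T3 CTCF score of 253 (percentile 77.7) and the strongest P19 CTCFL score of all crossed regions, 222 (percentile 95.9). Its nearest P19 CTCF peak lay 34136 bp away and its nearest 3T3 CTCFL peak 77163 bp away. This region was therefore far from the excluded peaks. At chr1:43502052-43503286 the scores were 289 and 144, and the nearest P19 CTCF and 3T3 CTCFL peaks were even more distant, at 145375 and 284054 bp. At chr12:118772382-118773323 they were 180 and 160, with gaps of 51102 and 308731 bp. These 3 regions had both peaks above their list medians and no excluded peak within 10 kb.

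Other regions of this leading set lay closer to the peaks they lacked. The second strongest P19 CTCFL peak, score 219, was at chr12:114378127-114379151, where the 3T3 CTCF peak scored 168 and the peaks shared 894 bp. A P19 CTCF peak lay 3290 bp and a 3T3 CTCFL peak 3047 bp outside it. Likewise chr1:74433012-74433910, with scores of 187 for CTCF and 164 for CTCFL, had gaps of 3105 and 3960 bp. Such neighbours do not overlap the region and so did not bar it. The region chr15:75570605-75571280 scored 252 and 133 and had a 3T3 CTCFL peak 827 bp away. At chr1:74997342-74998203, with scores of 393 and 105, a P19 CTCF peak followed after only 218 bp. In this last region the centres of the 2 peaks were 33.5 bp apart, so the CTCFL peak itself sat on the 3T3 CTCF peak. The set was completed by chr12:70232752-70233371 (581 and 99.5), chr10:115024111-115024813 (175 and 143) and chr2:180773537-180774452 (199 and 123).

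The highest 3T3 CTCF scores were paired with ordinary CTCFL peaks. The strongest CTCF peak, score 856, lay at chr6:49177135-49177592, where the P19 CTCFL score was 57.4 (percentile 20.5). It was followed by chr11:61667607-61668970, with 708 for CTCF and 57.6 for CTCFL. Strong CTCF in 3T3 was thus met there by CTCFL peaks at percentiles of 20.5 and 20.8. Next came chr2:180204506-180204905 (595 and 67.7), the chr12:70232752-70233371 region above and chr17:73523117-73523951 (491 and 61.5). The P19 CTCFL percentiles of these regions were 39.7, 71.0 and 29.3. Conversely, the third highest P19 CTCFL score, 181 at chr15:100254262-100254938, went with a 3T3 CTCF score of 64.1 (percentile 19.9). In that region a 3T3 CTCFL peak lay 966 bp away.

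At the lower edge of the rule, scores stood just above the caller's limit. The 3 lowest P19 CTCFL scores of crossed regions were 50.6 at chr19:46222619-46223509, 50.6 at chr17:28712618-28713109 and 50.8 at chr1:95072917-95073693. Their 3T3 CTCF scores were 112, 50.3 and 149. The chr17 region was thus at the limit in both lists. The next lowest 3T3 CTCF scores, 50.5 each, belonged to chr11:102850678-102852454 and chr2:115891029-115891676. A P19 CTCFL score under 60 was found at 62 of the 216 regions, 28.7% (22.8 to 35.2). This was near the 25.9% (24.8 to 27.1) of all 5816 regions with P19 CTCFL, and below the 46.2% of regions with P19 CTCFL alone. A 3T3 CTCF score under 60 was found at 33 of the 216, and the same share was not counted over all regions with 3T3 CTCF. The lower quartile of that score was 65.5, against 70.6 over all regions with 3T3 CTCF.

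Some regions missed the rule by as little. A P19 CTCF peak of score 50.7 alone excluded chr11:83115587-83116787, and one of 50.8 excluded chr19:5035769-5036346. At chr3:94405708-94406565 the 3T3 CTCF score was 521, the P19 CTCFL score 51.6 and the excluding P19 CTCF score 50.9. A peak of score 51.1 did the same at chr7:112799184-112800302, where 3T3 CTCF scored 89.7 and P19 CTCFL 108. The 4 weakest excluding 3T3 CTCFL peaks ranged from 50.3 at chr3:37211259-37211778 to 51.4 at chr11:84338906-84339923, with 50.5 at chr15:88980169-88980761. When only P19 CTCF and 3T3 CTCFL peaks of score at least 60 excluded a region, 275 regions met the rule, among them all 216. With that limit at 100 there were 612, again with all 216. With all lists limited to their 5866 highest scoring peaks, 204 regions met the rule, and only 5 of them were among the 216. Membership therefore depended on where the lists were ended.

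The share of 3T3 CTCF sites with P19 CTCFL was examined at like CTCF score. The regions with 3T3 CTCF and no 3T3 CTCFL were divided into 10 score groups. Among those without P19 CTCF, which give the crossed regions, the share with P19 CTCFL was 0.789% (0.495 to 1.19) in the lowest group and at most 0.820% up to group 5. It was 1.60% (1.09 to 2.28) in group 7, 2.74% (1.88 to 3.84) in group 8 and 2.30% (1.05 to 4.31) in the highest group, which held 9 crossed regions. With P19 CTCF present the shares were 6.35% (4.70 to 8.36) in the lowest group, 12.4% (11.1 to 13.8) in group 8 and 15.3% (14.1 to 16.6) in the highest. In each of the 10 groups the share without P19 CTCF was the lower one. The selection itself used the P19 CTCF and P19 CTCFL lists, so these shares describe it by score and support no reading of its cause.

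**Figure D3:**
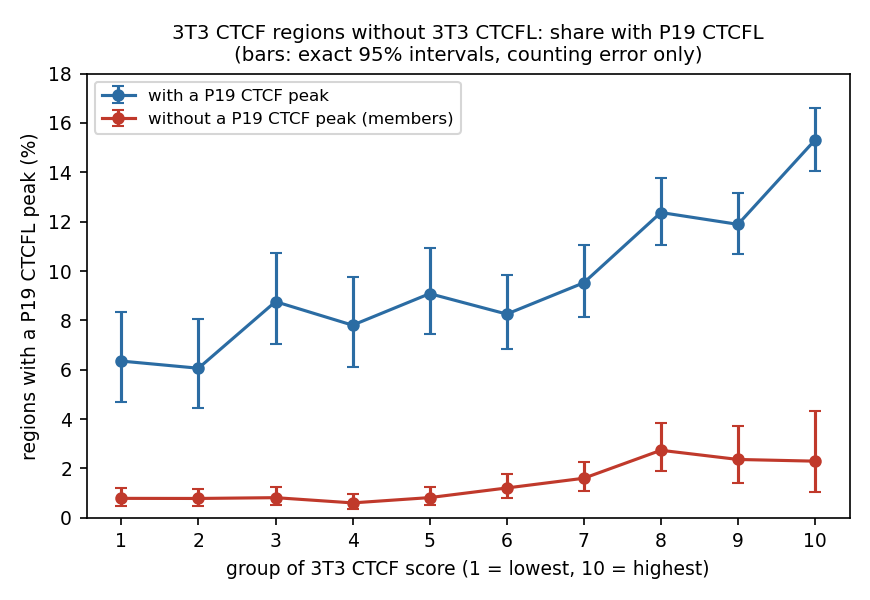
Share of 3T3 CTCF regions without 3T3 CTCFL that hold a P19 CTCFL peak, by group of 3T3 CTCF score, with exact 95% intervals for counting error. The regions without P19 CTCF (red, from 0.789% in group 1 to 2.30% in group 10) lie below those with it (blue, from 6.35% to 15.3%) in every group.

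Peak width moved with the same share. In 5 groups by width of the 3T3 CTCF peak, crossed regions made up 0.407% (0.2635 to 0.6002) of the regions without P19 CTCF in the narrowest group, 104 to 218 bp. In the widest group, 461 to 2434 bp, they made up 3.67% (2.95 to 4.51), which is 87 of 2369 regions. The median 3T3 CTCF peak of a crossed region was 396 bp wide, against 268.5 bp where CTCF was alone, and the P19 CTCFL peak was 575.5 bp wide, against 522.5 bp where CTCFL was alone. Wide peaks are also more likely to meet another by their length. With every peak set to 200 bp or 400 bp around its centre, 216 and 218 regions met the rule, and 0.983% and 1.12% of the 3T3 CTCF regions without the other peaks carried P19 CTCFL. The equal count at 200 bp does not stand for the same regions. Only 151 of the crossed regions had peak centres within 200 bp, so others must have been lost and replaced. How many were shared was not counted. In the widest group the share with P19 CTCF present was 14.7% (13.7 to 15.7).

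From the side of P19 CTCFL, the share of sites with 3T3 CTCF was larger at higher CTCFL scores where P19 CTCF was missing. Of P19 CTCFL regions without P19 CTCF or 3T3 CTCFL, 13.2% (9.77 to 17.3) were crossed in the lowest of 5 CTCFL score groups and 29.5% (21.9 to 38.1) in the highest, where 39 of 132 were. The 3 groups between had 15.4%, 23.0% and 23.2%. With P19 CTCF present the 5 shares ran from 63.7% to 69.6% with no order by score, among them 68.6% in the lowest group and 66.9% in the highest. The difference between these courses was not tested.

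The 2 peaks of a crossed region must overlap by the rule, and they mostly shared at least 200 bp. A single P19 CTCFL peak was present in all 216, with 1 3T3 CTCF peak in 201 regions, 2 in 14 and 3 in 1. The peaks with the highest scores shared a median of 318 bp (quartiles 224.75 and 426.5), and they shared at least 200 bp in 173 regions and under 50 bp in 6. The centre of the CTCF peak fell inside the CTCFL peak at 177 regions, 81.9% (76.1 to 86.8), and 86 CTCF peaks, 39.8% (33.2 to 46.7), lay wholly inside it. Over all 3937 regions with both peaks these shares were 89.74% (88.75 to 90.67) and 33.99% (32.51 to 35.49). The median shared length there was 422 bp. The interval of crossed regions thus lay lower for the centre and overlapped for CTCF peaks wholly inside. The smallest overlap was 7 bp.

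The centres of the peaks were a median of 96.25 bp apart, with quartiles of 49.9 and 229.75 bp. They lay within 100 bp at 110 regions, 50.9% (44.1 to 57.8), against 54.0% of all 3937 regions with both peaks. Of the 1716 regions that had P19 CTCF as well and no 3T3 CTCFL, 64.0% (61.7 to 66.3) had centres within 100 bp and 88.6% (87.0 to 90.1) within 200 bp. In crossed regions 69.9% (63.3 to 75.9) were within 200 bp. At both distances the interval of the crossed regions lay below that of the 1716 regions. The regions with CTCFL in both lines and the regions with all 4 peaks had 41.1% (37.30 to 44.99) and 48.0% (45.3 to 50.7) within 100 bp. Within 200 bp these classes had 69.3% (65.63 to 72.85) and 73.6% (71.18 to 75.95). At both distances their intervals overlapped that of the crossed regions.

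**Figure D4:**
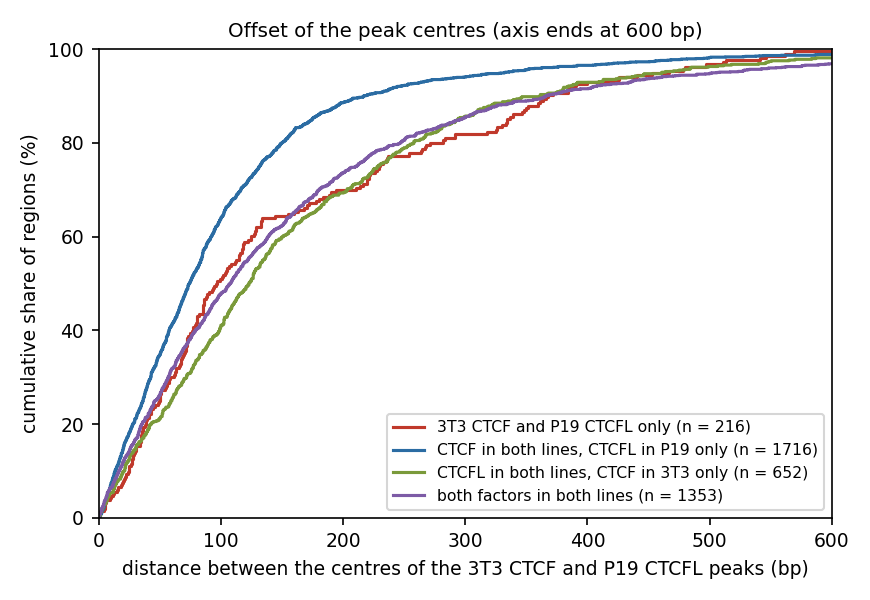
Cumulative share of regions by the distance between the centres of the 3T3 CTCF and P19 CTCFL peaks, for 4 classes, with the axis ending at 600 bp. At 200 bp the crossed regions (red) reach 69.9% and the regions with CTCF in both lines and CTCFL in P19 (blue) 88.6%. The regions with CTCFL in both lines and those with all 4 peaks reach 69.3% and 73.6%.

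Crossed regions with distant centres had wider CTCF peaks and similar scores. Because the 2 peaks must overlap, distant centres need wide peaks, so the difference in width is partly set by the rule. The 65 regions with centres over 200 bp apart had a median 3T3 CTCF width of 553 bp, against 354 bp in the 110 regions with centres at most 100 bp apart. Median scores of the former were 97.0 for CTCF and 72.3 for CTCFL, and of the latter 101 and 67.3. The closest centres, 0.5 bp apart, were found at chr17:9632665-9633426, followed by chr17:85489873-85490487 (1.5 bp) and chr10:13588487-13589026 (2 bp). The most distant were 682 bp apart at chr12:56085723-56087349, 569 bp at chr3:58809970-58811277 and 561.5 bp at chr15:97834216-97835431. The last 3 regions shared 263, 170 and 93 bp of their peaks. Just beyond the rule, 42 of the 920 P19 CTCFL regions without other peaks lay within 500 bp of a region with 3T3 CTCF alone, 14 of them within 100 bp.

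The peaks that crossed regions lack were near them about as often as near merged regions in general. A P19 CTCF peak lay within 10 kb of 101 regions, 46.8% (40.0 to 53.7), and a 3T3 CTCFL peak within 10 kb of 72, 33.3% (27.1 to 40.0). Both were within 10 kb at 47 regions and neither at 90, 41.7% (35.0 to 48.6). The shares over all merged regions were 45.8% for P19 CTCF, 31.1% for 3T3 CTCFL and 42.4% for neither. The share with both was not counted over all merged regions. The median gap was 10984.5 bp to P19 CTCF and 27167.5 bp to 3T3 CTCFL. For regions with 3T3 CTCF alone these medians were 10869.5 and 18542 bp, and for regions with P19 CTCFL alone 12618 and 29545.5 bp. Neither peak lay within 100 kb at 6 crossed regions, 2.78% (1.03 to 5.95), and this interval included the 4% of all merged regions.

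Close to the regions the picture differed between the excluded lists. Within 1000 bp, P19 CTCF was found at 16 crossed regions, 7.41% (4.29 to 11.7), against 8.58% (8.37 to 8.80) of all merged regions, 9.07% (8.67 to 9.48) of regions with 3T3 CTCF alone and 9.35% (7.54 to 11.4) of those with P19 CTCFL alone. A 3T3 CTCFL peak was found within 1000 bp at 27, 12.5% (8.40 to 17.7), against 7.76% (7.55 to 7.96) of all merged regions and, for the single-peak classes in the same order, 9.54% (9.13 to 9.96) and 6.63% (5.11 to 8.44). The interval for 3T3 CTCFL lay above that of all merged regions, and those of the other 5 comparisons overlapped. Against the 1716 regions with CTCF in both lines and CTCFL in P19, of which 6.93% (5.78 to 8.24) had a 3T3 CTCFL peak so close, the interval of the crossed regions lay higher. It overlapped that of the 652 regions with CTCFL in both lines and CTCF in 3T3, 13.3% (10.8 to 16.2). It also overlapped that of the 1353 regions with all 4 peaks, 10.8% (9.19 to 12.6). With regions barred by an excluded peak within 1000 bp, 177 crossed regions were left, and within 5000 bp, 117. Under those bars, 18.3% and 17.4% of the P19 CTCFL regions without P19 CTCF or 3T3 CTCFL had 3T3 CTCF, near the 19.01% given above.

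**Figure D5:**
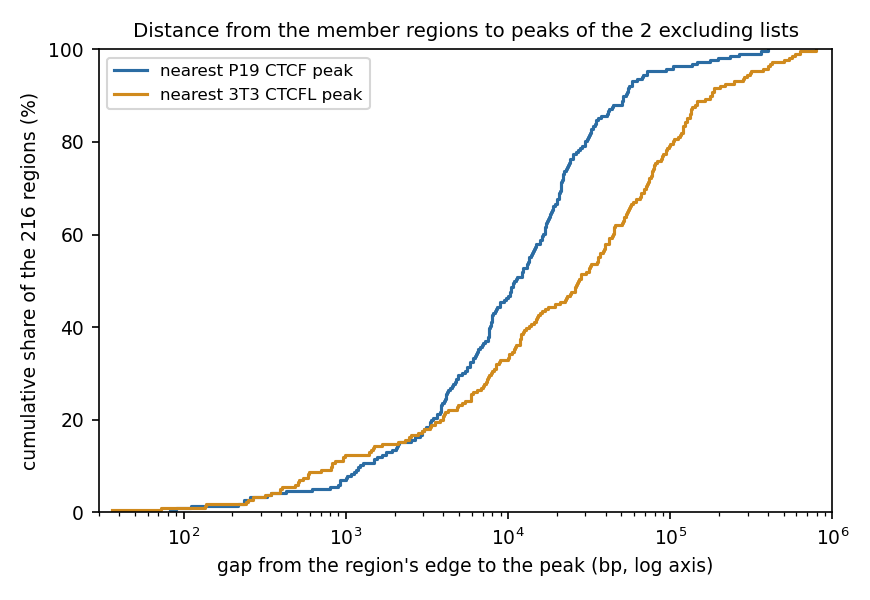
Cumulative share of the 216 crossed regions by the gap from the region's edge to the nearest P19 CTCF peak (blue) and the nearest 3T3 CTCFL peak (orange), on a log axis. At 10 kb the curves reach 46.8% and 33.3%.

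In a few crossed regions an excluded peak lay closer than the width of a peak. At chr5:23990921-23991568 a P19 CTCF peak began 82 bp outside the region, at chr7:28118319-28118973 one lay 90 bp away and at chr7:20092331-20092943 one lay 112 bp away. The 3T3 CTCF scores there were 68.6, 121 and 269, and the P19 CTCFL scores 60.7, 77.0 and 55.1. For 3T3 CTCFL the closest peaks were 36 bp from chr9:111214967-111215521, 73 bp from chr2:14525514-14526437, 135 bp from chr17:66908255-66908914 and 137 bp from chr9:107569193-107569900. The neighbouring P19 CTCF peaks scored 481, 109 and 116, and the 3T3 CTCFL peaks 82.3, 82.0, 115 and 76.2. Whether such a pair of peaks marks a single bound site was not tested.

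Peaks of the lists that crossed regions do carry were more frequent close by than at merged regions in general. A further 3T3 CTCF peak lay within 1000 bp of 53 crossed regions, 24.5% (18.9 to 30.8), against 17.1% (16.8 to 17.4) of all merged regions and 22.2% (21.6 to 22.8) of regions with 3T3 CTCF alone. A further P19 CTCFL peak lay within 1000 bp of 13, 6.02% (3.24 to 10.1), against 2.40% (2.29 to 2.53) of all merged regions and 4.35% (3.12 to 5.87) of regions with P19 CTCFL alone. The intervals of crossed regions lay above those of all merged regions and overlapped those of the single-peak classes. Within 5000 bp the shares were 51.4% (44.5 to 58.2) against 42.5% of all merged regions for 3T3 CTCF, and 14.4% (9.96 to 19.8) against 8.40% for P19 CTCFL. Over 100 kb the medians lay closer together. Leaving out the region's own peaks, the median crossed region had 8 3T3 CTCF, 2.5 3T3 CTCFL, 5 P19 CTCF and 1 P19 CTCFL peaks in that window, and all merged regions had 7, 3, 5 and 1 for these lists.

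Crossed regions were spread over all chromosomes and seldom lay near each other. Each of the 19 autosomes and X held at least 5. Chromosomes 2 and 7 had the most, 21 each, which is 0.421% (0.261 to 0.643) and 0.476% (0.295 to 0.726) of their merged regions, and chromosome 4 had the lowest share, 9 of 4961 or 0.181% (0.0830 to 0.344). The interval of each of the 20 chromosomes included the overall 0.329%. Taken per P19 CTCFL region, where 216 of 5816 or 3.71% were crossed, the interval included the overall share on 19 of 20 chromosomes. The exception was chromosome 7, where 21 of 346 were crossed, 6.07% (3.80 to 9.13). Its lower limit lay close to the overall 3.71%, and no allowance was made for looking at 20 chromosomes.

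The median gap to the next crossed region was 2412967 bp, and 210 of the 216 had none within 100 kb. The other 6 formed 3 pairs. Whether this spacing differs from that of as many other merged regions was not tested. The closest pair, 32441 bp apart, was chr5:23957053-23958479, with scores of 249 for 3T3 CTCF and 78.2 for P19 CTCFL, and the chr5:23990921-23991568 region named above. The pair of chr1:74930954-74931587 (145 and 61.5) and chr1:74997342-74998203 was 65754 bp apart. In the third pair, 93803 bp apart, chr12:55991419-55991919 (92.6 and 54.3) lay beside the chr12:56085723-56087349 region with the most distant peak centres.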

How the data were processed

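Each list was deposited as peaks with chromosome, start, end and a score, which was read as the authors' MACS score. Per the submitters' processing notes the tools were Bowtie, FastQC, MACS 1.4 and SAMtools. The notes give 2 builds, mm9 and hg19, and mm9 was taken for these mouse cells. The sources used here do not give settings, control library, pooling or depth. No genome, gene or promoter table of mm9 was used here, so the planned gene and sequence steps were not run.

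Peaks of all lists were merged at 1 bp of overlap. The highest scoring peak stands for a list in a region. Named regions are those leading or trailing in score, centre distance, gap or spacing by a fixed rule. The 10 with the highest summed percentile, 5 with the highest score in each list, 3 with the lowest, 4 nearest to each excluded list, 4 just outside by each, 3 with the smallest and 3 with the largest centre distance, and pairs within 100 kb qualify. The membership rule, the classes and the naming rule were chosen with earlier results of these data known, and the groups by width and CTCFL score after the counts were seen. Merging was tested on simulated lists, and the counts of 65700 and 216 regions equalled those of bedtools 2.31.1. Intervals came from SciPy 1.17.1, and pandas 2.3.3, numpy 2.4.6, matplotlib 3.10.9 and Python 3.11.15 were also used.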

Additional observations from a re-analysis of the deposited data

How the results depend on the processing

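No paired analysis was possible because no group held more than 1 library, so no replicate could be left out either. The sequence step was not run. Of the values under alternatives, 58 were inside the interval of the main value (for counts, within 1.5 times) and 38 were beyond it. The shares followed here leave out regions with 3T3 CTCFL. The first is the share of P19 CTCFL regions without P19 CTCF that had 3T3 CTCF. The second is the share of 3T3 CTCF regions without P19 CTCF that had P19 CTCFL. The third is the share of regions with CTCF in both lines that had P19 CTCFL. With scores of at least 60 in all lists the first share was 22.4% and the third 9.07%. With scores of at least 100 in all lists there were 91 crossed and 8 reverse regions, and the shares of P19 CTCFL sites on 3T3 CTCF, of 3T3 CTCF sites with P19 CTCFL, and of CTCF sites of both lines with P19 CTCFL were 28.7%, 0.883% and 4.52%. Limits of 60 and 100 in the 3T3 CTCF and P19 CTCFL lists alone gave 132 and 26 crossed regions, 0.859% and 0.455% for the second share, 8.43% and 3.09% for the third, and 106 reverse regions at 100. Limits of 60 and 100 in the other lists gave 1.29% and 2.20% for the second share, 11.7% and 14.6% for the third, 15 and 2 reverse regions, and, at 100, 612 crossed regions and 32.3% for the first share. In the settings by distance, a P19 CTCF peak within 500, 1000 or 5000 bp counted as present for the third share. Regions with 3T3 CTCFL so close were left out of it. The third share was then 10.2%, 9.75% and 8.03%, over 16265, 16506 and 17178 regions. Barring regions by a peak they must lack within 5000 bp gave 117 crossed and 18 reverse regions. Peaks resized to 200 bp gave 14.9% for the first share and 97 reverse regions, and peaks resized to 400 bp gave 46 reverse regions. Lists of 5866 peaks gave 6.62%, 9.95% and 27.7% for the shares and 4 reverse regions. The medians of crossed regions with scores of at least 100 in all lists were 187.1 for 3T3 CTCF, 122.7 for P19 CTCFL and 15767 bp to P19 CTCF, and the last was 19438 bp with regions barred within 5000 bp. The second share was below the third under each of these settings. Both shares come from the lists that define the classes, so this order describes the selection and is no test of it. The settings with score limits or shortened lists drop weak peaks by their construction. Barring regions within 5000 bp likewise removes every short gap to P19 CTCF, and the settings by distance change which regions the third share covers. For the other shifts the cause was not tested. Depth is unknown, so a missing peak may be a site that was not detectable.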
